A study of Rattus norvegicus with 12 samples.

Results

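The genes described here encode the constitutive proteasome. They were taken from a table of 32623 rat genes by symbol, as every gene whose name starts with Psma, Psmb, Psmc, Psmd or Psme, without Psmb8, Psmb9 and Psmb10 and with at least 50 counts summed over 12 heart libraries. The rule gave 40 genes. Of 42 genes with these prefixes, Psma8 (1 count) and Psmb11 (3 counts) fell outside, and the members just inside were Psme1-ps1 (78 counts) and Psmd10 (190 counts). The rule uses only names and total counts. By structural role, 7 encode the alpha ring, 7 the beta ring, 6 the ATPases of the base, 11 the other subunits of the base and lid, and 4 the activators. The other 5 share the prefix only: Psmd5, Psmd9 and Psmd10 encode chaperones of base assembly, Psmc3ip encodes a meiotic recombination factor that is no proteasome subunit, and Psme1-ps1 is annotated as a pseudogene.

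The proteasome is the chamber in which cells degrade proteins that carry ubiquitin. Its core is a barrel of outer alpha rings, which gate the entry, and inner beta rings, of which the subunits encoded by Psmb5, Psmb6 and Psmb7 carry the chymotrypsin-like, caspase-like and trypsin-like active sites. A regulatory cap on the barrel binds ubiquitin chains and removes them (lid) and unfolds the substrate (ATPases of the base). Other activators, PA28 and PA200, open the barrel without ubiquitin. In heart muscle the proteasome turns over contractile and other proteins, and inflammatory signals replace the active beta subunits by those of the immunoproteasome (Psmb8, Psmb9 and Psmb10).

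The RNA was total RNA of tissue labelled heart, with no region given, from male Sprague Dawley rats. The labels give an age of 5 weeks and a weight of 130 to 150 g. These are read here as values at the start, since the protocol of the CTRL rats alone lasted 8 weeks. There were 3 groups of 4 libraries. CTRL rats lived in normoxia for 8 weeks. SU_HX rats received 1 agent, SU-5416, a blocker of VEGF receptors, at 20 mg/kg under the skin, and had 3 weeks at 10% oxygen and 2 weeks of normoxia, in an order that the labels leave ambiguous, followed by 3 weeks of vehicle in normoxia; this is a model of pulmonary hypertension. Chrysin rats had the same SU-5416 and hypoxia and were then given chrysin, a flavonoid found in plants, in place of vehicle, also for 3 weeks, with a daily dose of 100 mg/kg. Nothing in the labels says that each library is a separate animal, and the p-values therefore reflect only how far these libraries differ, which may be technical.

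Total counts per library ran from 3997306 to 6009798. The libraries SU_HX 1 and Chrysin 3 stood apart, and results are given with and without them. Intron reads made up 63.4% of the gene reads of SU_HX 1, while the lowest share was 42.6% (SU_HX 2) and no library besides SU_HX 1 exceeded 50%. The library labelled Chrysin 3 had Myh6, the adult heart myosin, at 35113 CPM against 3447 to 4550 in the other Chrysin libraries and 37557 to 43227 in CTRL, and the stress marker Nppa at 120 CPM against 2941 to 7084 in the other Chrysin libraries. CPM are counts scaled to a common library total, after the total of each library was adjusted by its TMM scaling factor. They are therefore not plain shares of the total counts given above. Sums of cell type markers differed between the groups as well, though not every marker of a list followed its sum. The summed level of 8 cardiomyocyte markers was 69389 to 78170 CPM in CTRL, 14196 to 35340 in SU_HX and 22848 to 70292 in Chrysin. Myh6 was the largest part of the CTRL sum and was at 1150 to 6901 CPM in SU_HX. Tnni3, Ryr2, Pln and Myl3 were also lower in every SU_HX library than in CTRL. Tnnt2, Actc1 and Myl2 overlapped, with Actc1 at 9950 to 10788 CPM in CTRL and 2036 to 10841 in SU_HX. For 6 macrophage markers the summed level was 98.8 to 152 CPM in CTRL, 268 to 581 in SU_HX and 148 to 379 in Chrysin. Cd163 overlapped, at 18.7 to 55.2 CPM in CTRL and 44.3 to 124 in SU_HX. The others of this list were higher in every SU_HX library than in CTRL. For 6 fibroblast markers the summed level was 3725 to 5941 CPM in CTRL, 5289 to 21059 in SU_HX and 4431 to 9635 in Chrysin. It came mostly from Col1a1 and Col3a1, which overlapped between CTRL and SU_HX. Dcn and Lum were higher in every SU_HX library than in CTRL. Pdgfra overlapped, at 163 to 202 CPM in CTRL and 152 to 305 in SU_HX, as did Tcf21, at 15.2 to 22.2 and 9.22 to 21.4 CPM. All 20 of these markers had counts in every library. Of 4 listed endothelial markers 3 passed the filter on low counts. Their sums were 672 to 715 CPM in CTRL, 658 to 687 in SU_HX 2 to 4, 1916 in SU_HX 1 and 622 to 921 in Chrysin. Kdr was higher in every SU_HX library (269 to 674 CPM) and every Chrysin library (282 to 356) than in CTRL (223 to 267). Cdh5 and Tie1 overlapped, with Cdh5 at 263 to 323 CPM in CTRL and 204 to 264 in SU_HX 2 to 4. Sums of 3 of 4 erythroid markers were 60.3 to 408 CPM in CTRL, 1029 to 1945 in SU_HX and 399 to 2848 in Chrysin. Those of 3 of 5 atrial markers were 23.4 to 66.9, 1307 to 5847 and 127 to 7100 CPM. In SU_HX and Chrysin this was mostly Nppa, at 1293 to 5745 and 120 to 7084 CPM, against 6.22 to 26.5 in CTRL. Myl4 was at 0.86 to 1.34, 4.41 to 42.9 and 1.37 to 9.09 CPM. Myl7 overlapped between the groups, at 0.58 to 53.1, 1.29 to 59.4 and 1.91 to 13.2 CPM. Sums of 4 lung epithelial markers were 1.07 to 3.26 CPM in CTRL, 10.9 to 55.7 in SU_HX and 5.78 to 13.7 in Chrysin. Of these, Sftpc was at 0 in CTRL 1, CTRL 3 and Chrysin 4 and Sftpa1 at 0 in CTRL 1, 3 and 4. The sum of Cd8a and Nkg7, 2 of 5 listed T and NK cell markers, was 2.30 to 5.95 CPM over all libraries. Nkg7 was lower in every SU_HX library (0.89 to 1.93 CPM) and every Chrysin library (1.27 to 2.20) than in CTRL (2.36 to 4.22). Cd8a overlapped between the groups. Cd3e, which did not pass the filter, was at 0.21 to 0.56 CPM in CTRL, 0.69 to 6.21 in SU_HX and 0.55 to 3.18 in Chrysin. Cd3d and Gzmb, also filtered out, were at 0 to 1.71 CPM. The part of these shifts in the results on the proteasome genes was not tested.

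All 40 genes passed the filter on low counts that left 12304 genes for the tests. In CTRL hearts, levels per exon length differed among the 31 subunits of core, base and lid from 19.01 CPM per kb (Psma4, alpha ring) to 102 CPM per kb (Psmb5), with a median of 49.8. The highest level per length of all members was that of Psme1, the alpha subunit of PA28, at 196 CPM per kb, while its partner in the same ring, Psme2, stood at 24.8 CPM per kb and Psme3, the nuclear PA28 gamma, at 10.5. PA200, encoded by Psme4, stood at 68.0 CPM per kb. The chaperone genes Psmd5, Psmd9 and Psmd10 had 9.51, 12.6 and 5.49 CPM per kb, below the lowest subunit. In SU_HX the highest member was again Psme1, at 83.3 CPM per kb, next to Psmb1 at 79.3, and in Chrysin it was Psme1 at 99.6 CPM per kb. Levels of Psme2, Psme3 and Psmb6 depend on how shared reads were assigned, since unique reads made up 6.72%, 22.9% and 24.9% of the exon reads, against 68.2% for Psma3, 69.3% for Psme1, 79.6% for Psme1-ps1 and at least 92.5% for the other members.

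**Figure D1:**
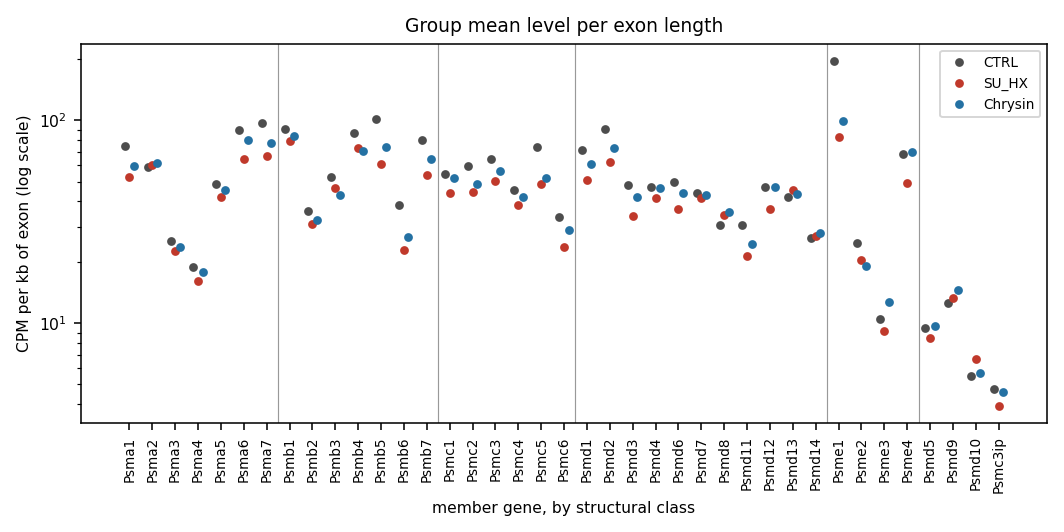
Group mean level of each member per exon length (vertical axis, CPM per kb, log scale) by gene and structural class; Psme1-ps1, at or below 3.30 CPM per kb, is left out. Psme1 lies highest in CTRL at 196 CPM per kb and Psmc3ip lowest at 4.75.

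The comparison of SU_HX with CTRL asks what the pulmonary hypertension model does to these transcripts. In SU_HX hearts 9 of 40 members fell, none rose and 31 did not pass (edgeR quasi-likelihood test over all genes, adjusted p under 0.05). Those that fell were Psma1, Psma7, all 3 genes of the active sites (Psmb5, Psmb6, Psmb7), Psmd1, Psmd2, Psmd11 and Psme1, by 29.2% (Psmd1) to 57.5% (Psme1). Over all genes tested 14.7% fell and 16.0% rose, so the share that fell, 22.5% of members, was not far above the background, while the share that rose was 0. At an unadjusted p under 0.05, 17 members were lower and 0 higher, against 2485 lower and 2757 higher of all 12304 genes. DESeq2 and limma-voom also called no member higher. The log2 fold change was negative in 34 of 40 members with a median of -0.29, against a median of 0.07 and 45.5% negative over all genes. In 19 members every SU_HX library was below every CTRL library, and in none was every SU_HX library above (16.8% and 15.9% of all genes). Fewer cells of a type and less RNA per cell cannot be told apart in these bulk samples.

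The fall was uneven among libraries. SU_HX 1 had the lowest CPM of its group in all 31 subunits of core, base and lid. The mean log2 deviation of the 40 members from CTRL was -0.75 in SU_HX 1 at the low end and -0.10 in SU_HX 2 at the high end, against -0.05 to 0.04 among CTRL libraries. Without SU_HX 1, 8 members fell (17.1% of all genes fell in that fit) with a median of -0.24, and 33 of 40 were negative. Leaving out both SU_HX 1 and Chrysin 3 gave 13 that fell, where 18.7% of all genes fell. Without CTRL 1, 2, 3 or 4 the members that fell numbered 5, 4, 3 and 4, against 11.1%, 11.1%, 10.5% and 11.5% of all genes. Without SU_HX 3 they numbered 3, against 9.35%, and without SU_HX 2 they numbered 16, against 19% of all genes. With only these groups in the fit 4 fell (Psma7, Psmb5, Psmb6 and Psme1), against 12.4% of all genes. Over the 12 libraries the 31 subunits varied together, with a median pairwise correlation of log2 CPM of 0.73, and 0.75 over the 8 SU_HX and Chrysin libraries; these points share library, depth, RNA composition and group.

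**Figure D2:**
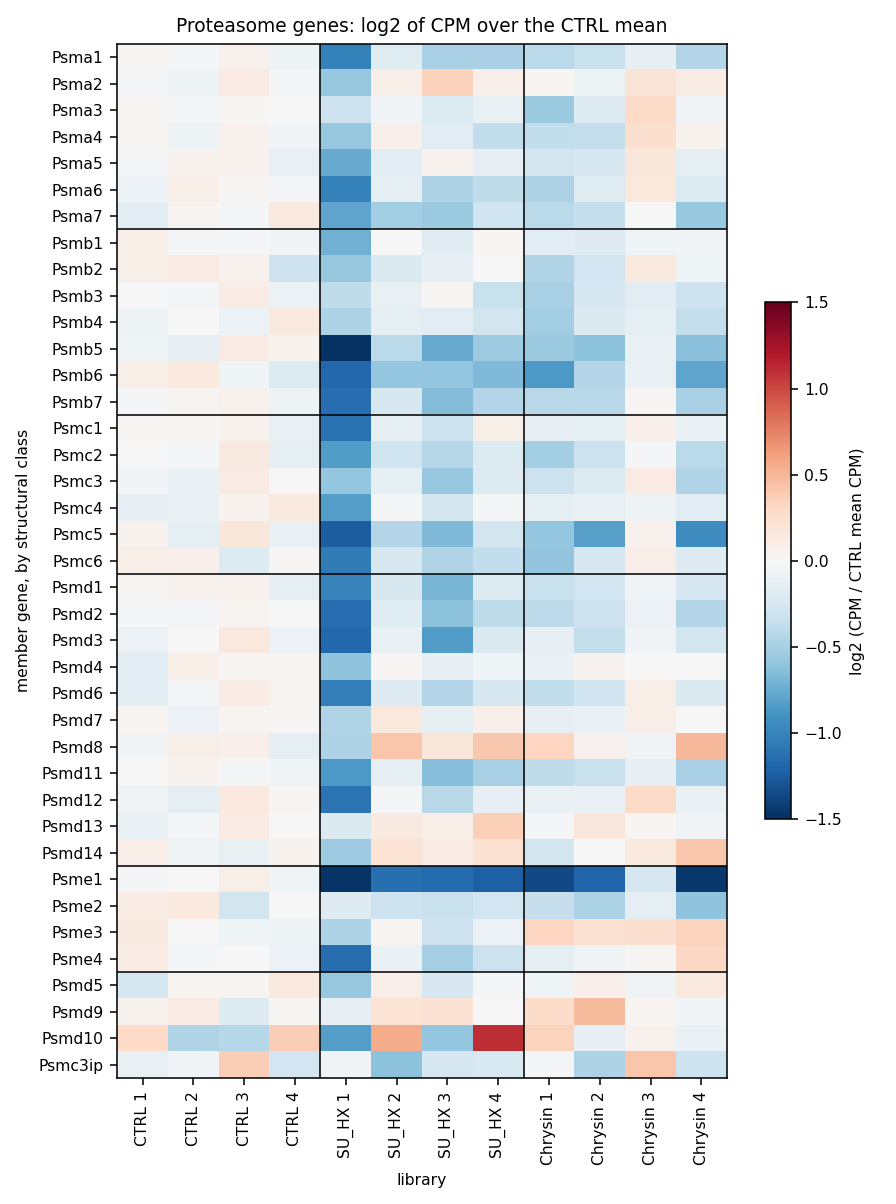
Log2 of CPM over the CTRL mean (colour) for 39 members (rows, by structural class) in 12 libraries (columns); Psme1-ps1 is left out because it was at 0 in several libraries. SU_HX 1 is lowest in its group in all 31 subunits, Psme1 is lower in all SU_HX libraries, and Chrysin 3 lies near CTRL.

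In the alpha ring 2 of 7 genes fell. Psma7 (alpha4) was at 79.1, 91.7, 87.3 and 98.6 CPM in CTRL and at 51.7, 62.6, 60.4 and 72.8 CPM in SU_HX. The groups did not overlap, and the log2 fold change was -0.53 ± 0.15 (SE, n = 4 per group; edgeR adjusted p = 0.0176). Psma1 (alpha6) went from 83.2 to 91.6 CPM in CTRL to 43.4 to 77.3 CPM in SU_HX, by -0.51 ± 0.16 (edgeR adjusted p = 0.0254). Psma7 was not called without CTRL 4 or SU_HX 3 (adjusted p 0.0541 to 0.0625), nor Psma1 without any 1 of the CTRL libraries or SU_HX 3 (0.0526 to 0.0733). The other 5 did not pass; the highest of the ring was Psma2 (alpha2), which overlapped CTRL, with a log2 fold change of 0.02 ± 0.16.

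In the beta ring the genes of all 3 active sites fell and the 4 structural subunits did not pass. Psmb5, the chymotrypsin-like subunit (chromosome 15, 33259043 to 33263659, 3 exons, in the deposited table, whose build is not given in the sources used here), stood at 85.5, 81.7, 97.4 and 92.3 CPM in CTRL and at 32.01, 67.2, 52.9 and 61.0 CPM in SU_HX. All SU_HX libraries were below all CTRL libraries, SU_HX 1 lowest, and the log2 fold change was -0.74 ± 0.20 (edgeR adjusted p = 0.0147), a fall of 40.2%. Without CTRL 3 its adjusted p was 0.0501. Psmb6, the caspase-like subunit (chromosome 10, 57131386 to 57133637, 6 exons), had 29.1, 30.3, 26.2 and 23.7 CPM in CTRL against 12.1, 18.3, 18.2 and 17.3 CPM in SU_HX. Again the groups were apart, with a log2 fold change of -0.73 ± 0.19 (edgeR adjusted p = 0.0125) that was called with any 1 library left out. On the reads unique to Psmb6 it was -0.58 and did not pass (edgeR adjusted p = 0.0788). Psmb7, the trypsin-like subunit (chromosome 3, 22871105 to 22952063, 13 exons), had 133, 140, 142 and 129 CPM in CTRL against 61.5, 115, 86.7 and 100.0 CPM in SU_HX. SU_HX 2 came nearest to CTRL without reaching it, and the log2 fold change was -0.58 ± 0.18 (edgeR adjusted p = 0.0287). This call was lost without any 1 of the CTRL libraries or SU_HX 3 (adjusted p 0.0573 to 0.0824), and with only these groups in the fit (0.0589). Of the structural subunits Psmb1 (beta6) had the value nearest to 0, -0.19 ± 0.15, and Psmb4 (beta7) the lowest, -0.26 ± 0.13 (edgeR adjusted p = 0.137).

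The promoters of these 3 genes and of Psme1, the member that fell most, are printed so that the position of known motifs can be compared between them, from 250 bases before to 50 bases after the RefSeq start site (build GRCr8, strand of the gene, 5′ to 3′). Capitals mark matches on either strand of TGACNNNGC, the core of the antioxidant response element that NRF factors bind, and of CCAAT, the box bound by NF-Y. The windows are chr15:32047330-32047629 on the minus strand (Psmb5), chr10:55737638-55737937 on the plus strand (Psmb6), chr3:42827421-42827720 on the minus strand (Psmb7) and chr15:33038721-33039020 on the plus strand (Psme1).
Psmb5: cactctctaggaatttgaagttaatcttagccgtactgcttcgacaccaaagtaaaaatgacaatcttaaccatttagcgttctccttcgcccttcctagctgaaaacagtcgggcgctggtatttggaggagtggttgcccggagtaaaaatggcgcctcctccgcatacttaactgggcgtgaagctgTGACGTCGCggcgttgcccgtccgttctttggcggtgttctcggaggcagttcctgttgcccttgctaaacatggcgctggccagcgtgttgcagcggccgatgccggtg
Psmb6: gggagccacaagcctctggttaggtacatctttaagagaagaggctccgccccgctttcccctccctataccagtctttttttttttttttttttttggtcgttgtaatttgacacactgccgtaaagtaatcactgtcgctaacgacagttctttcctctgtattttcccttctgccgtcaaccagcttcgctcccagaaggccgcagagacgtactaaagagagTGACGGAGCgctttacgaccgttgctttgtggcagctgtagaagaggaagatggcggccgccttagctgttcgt
Psmb7: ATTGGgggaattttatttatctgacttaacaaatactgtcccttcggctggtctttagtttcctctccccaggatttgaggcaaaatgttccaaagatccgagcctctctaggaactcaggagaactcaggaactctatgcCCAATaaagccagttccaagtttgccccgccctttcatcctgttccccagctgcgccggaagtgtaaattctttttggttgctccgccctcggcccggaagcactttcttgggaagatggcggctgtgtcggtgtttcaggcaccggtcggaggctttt
Psme1: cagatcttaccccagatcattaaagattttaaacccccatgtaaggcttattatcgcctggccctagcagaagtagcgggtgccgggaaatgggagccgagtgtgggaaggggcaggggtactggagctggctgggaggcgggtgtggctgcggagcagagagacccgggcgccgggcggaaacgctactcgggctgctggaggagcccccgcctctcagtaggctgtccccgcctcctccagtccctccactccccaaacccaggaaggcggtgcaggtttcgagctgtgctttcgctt
TGACNNNGC was found 60 bases before the start site in Psmb5 and 24 bases before it in Psmb6, CCAAT 250 and 109 bases before it in Psmb7, and neither in Psme1. The RefSeq table held 35 of the 40 members; Psma7, Psmd6, Psmd12, Psmd14 and Psme1-ps1 had no entry used here. TGACNNNGC was in 8 of the 35 windows (22.9%) against 12.1% of 33469 rat promoters of the same length, and CCAAT in 18 (51.4%) against 37.5%. Among the 8 genes with a window that fell in SU_HX, 3 held TGACNNNGC (Psmb5, Psmb6, Psmd1) and 2 held CCAAT; among the 27 others, 5 and 16 did. These are matches of letters, not sites shown to be bound.

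None of the 6 ATPase genes of the base passed, though all had negative values. The log2 fold change ran from -0.25 ± 0.16 for Psmc4 (Rpt3) to -0.61 ± 0.23 for Psmc5 (Rpt6). Psmc5 stood at 99.3, 87.1, 108 and 88.6 CPM in CTRL and at 40.6, 70.9, 60.6 and 79.3 CPM in SU_HX. These groups did not overlap, but the SU_HX values ranged widely (edgeR adjusted p = 0.0614). Psmc2, Psmc3, Psmc5 and Psmc6 had no overlap with CTRL, with edgeR adjusted p of 0.0522, 0.0901, 0.0614 and 0.0560. Psmc5 passed without SU_HX 4 or without Chrysin 3 (adjusted p 0.0329 to 0.0437).

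Of the 11 other genes of the base and lid 3 fell. Psmd2 and Psmd1 encode Rpn1 and Rpn2, scaffolds of the base. Psmd2 was at 261, 264, 275 and 266 CPM in CTRL and at 121, 234, 174 and 205 CPM in SU_HX, a log2 fold change of -0.54 ± 0.19 (edgeR adjusted p = 0.0451). Psmd1 was at 201 to 231 CPM in CTRL and 110 to 192 CPM in SU_HX, by -0.50 ± 0.18 (edgeR adjusted p = 0.0497). Neither group overlapped with CTRL, but both sat at the threshold: each was lost in 10 of 12 fits that left out 1 library, with adjusted p of 0.0528 to 0.120 for Psmd2 (called only without SU_HX 1 or 2) and 0.0598 to 0.151 for Psmd1 (called only without SU_HX 2 or 4). Psmd11, the lid subunit Rpn6, had 102, 107, 101 and 99.4 CPM in CTRL and 56.4, 92.5, 65.8 and 73.0 CPM in SU_HX, by -0.51 ± 0.15 (edgeR adjusted p = 0.0215), and was not called without CTRL 2, CTRL 3 or SU_HX 3 (0.0519 to 0.0728). The genes Psmd4 and Psmd14 did not pass. Psmd4, the ubiquitin receptor Rpn10, was at 58.9, 69.6, 66.5 and 67.5 CPM in CTRL and at 43.1, 66.5, 60.2 and 62.6 CPM in SU_HX, by -0.17 ± 0.14 (edgeR adjusted p = 0.352). Psmd14, the deubiquitinase Rpn11, had 44.6, 40.3, 38.6 and 43.1 CPM in CTRL against 28.5, 48.0, 45.4 and 48.8 CPM in SU_HX. Apart from SU_HX 1, which lay far below, these SU_HX values were above the highest CTRL value, and the log2 fold change was 0.04 ± 0.18 (edgeR adjusted p = 0.894). Psmd8 (Rpn12) and Psmd13 (Rpn9), lid subunits, had the highest values of the class. Psmd8 was at 42.1 to 48.9 CPM in CTRL and 33.4, 61.5, 51.8 and 61.0 CPM in SU_HX, a log2 fold change of 0.17 ± 0.18 (edgeR adjusted p = 0.507), and Psmd13 at 61.1 to 71.8 CPM in CTRL and 57.1, 72.8, 71.1 and 85.0 CPM in SU_HX, 0.11 ± 0.13 (edgeR adjusted p = 0.537). In both genes SU_HX 1 was below CTRL and the other libraries were mostly above. They also followed the other subunits least, with a correlation over 12 libraries with the mean of the others of 0.28 and 0.33, against 0.98 for Psmd6 (Rpn7), as a description.

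**Figure D3:**
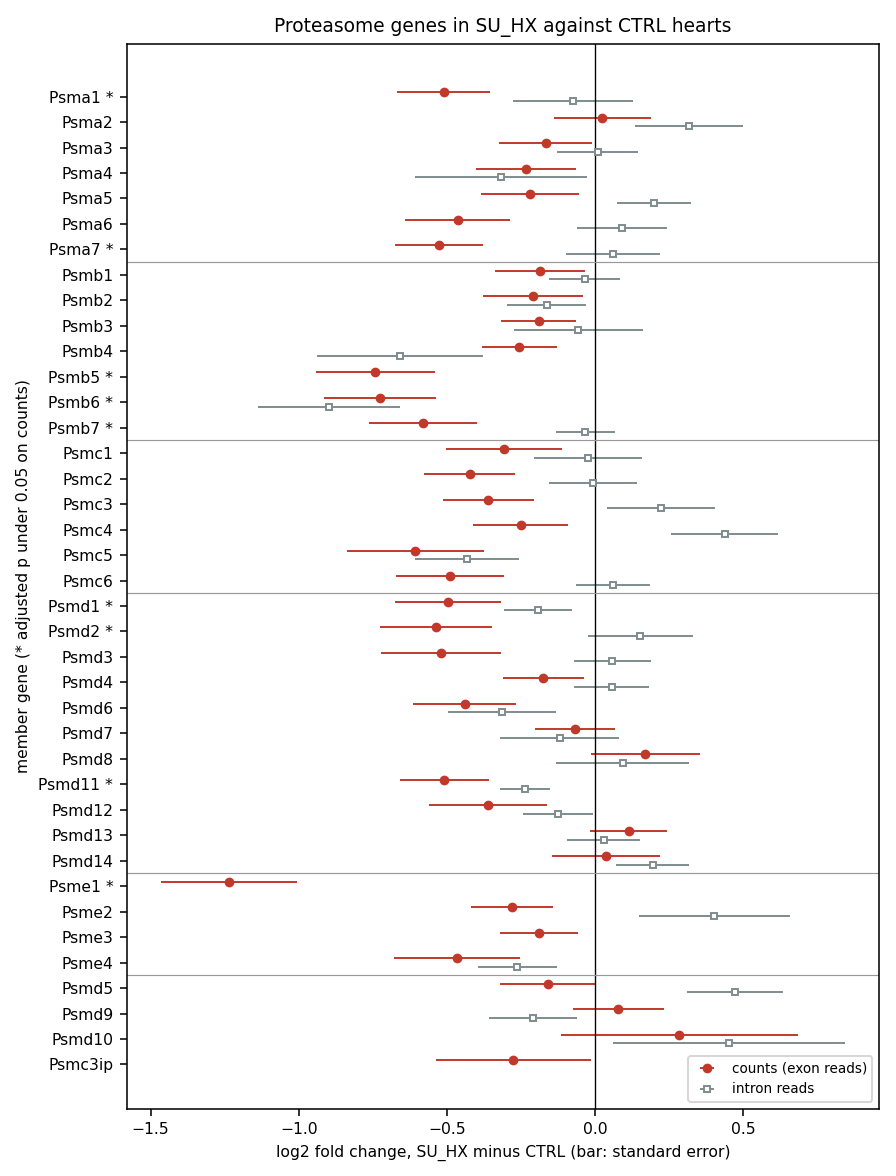
Log2 fold change of SU_HX over CTRL (horizontal axis; bars are standard errors, 4 libraries per group) for 39 members by structural class, from counts (filled) and from intron reads (open, 35 genes tested). Counts lie left of 0 for most members, Psme1 farthest at -1.24, while intron reads scatter on both sides of 0, with Psmb6 lowest at -0.90.

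Among the activators Psme1 fell and the other 3 did not pass. Psme1 (PA28 alpha; chromosome 15, 34256071 to 34258947, 11 exons in the deposited table) stood at 193, 196, 208 and 188 CPM in CTRL and at 70.7, 89.8, 88.5 and 84.1 CPM in SU_HX. No SU_HX library came near a CTRL library, and the 4 SU_HX values lay close together. Its log2 fold change was -1.24 ± 0.23 (edgeR adjusted p = 0.00262), a fall of 57.5%, the largest among the 9, and it was called in every alternative that was run, with any 1 library left out at -1.28 to -1.17 (adjusted p at most 0.0104). The log2 fold change was -1.22 on reads unique to Psme1 and -1.18 on unique reads across its exon junctions, which bears on the overlap of its region with that of Emc9. Psme1-ps1 had 0 to 5.41 CPM, with 0 in 7 libraries of all groups, and its fold change (-1.66 ± 1.41) did not pass (edgeR adjusted p = 0.388).

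Psme2, the beta subunit of the same PA28 ring, was at 35.8, 36.6, 27.4 and 33.0 CPM in CTRL and at 29.0, 26.8, 26.3 and 27.3 CPM in SU_HX. These ranges overlapped, with a log2 fold change of -0.28 ± 0.14 (edgeR adjusted p = 0.136). The log2 ratio of Psme1 to Psme2 counts, a pair chosen after its values were seen, was 2.43, 2.42, 2.92 and 2.50 in CTRL and 1.28, 1.74, 1.74 and 1.62 in SU_HX. All SU_HX ratios were below all CTRL ratios, a difference of -0.97, with an exact two-sided permutation p of 0.0286, the smallest that 4 against 4 can give, and 0.0857 after adjustment over 3 comparisons. On unique reads, of which Psme2 had only 147 in all 12 libraries, the difference was -0.82. Psme3 was at 30.2, 27.2, 26.2 and 26.1 CPM in CTRL and at 19.9, 28.2, 22.1 and 25.9 CPM in SU_HX, by -0.19 ± 0.13 (edgeR adjusted p = 0.296). Psme4 (PA200) had 522, 476, 485 and 455 CPM in CTRL and 219, 453, 342 and 388 CPM in SU_HX. Every SU_HX value was below CTRL, SU_HX 2 only just, and the log2 fold change of -0.47 ± 0.21 did not pass (edgeR adjusted p = 0.113; 0.0375 without SU_HX 2).

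None of the chaperone genes passed in SU_HX. Psmd5 and Psmd9 had log2 fold changes of -0.16 ± 0.16 and 0.08 ± 0.15, and Psmd10 (gankyrin), at 1.62 to 6.24 CPM over SU_HX, 0.28 ± 0.40. The meiotic factor Psmc3ip had -0.28 ± 0.26.

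**Figure D4:**
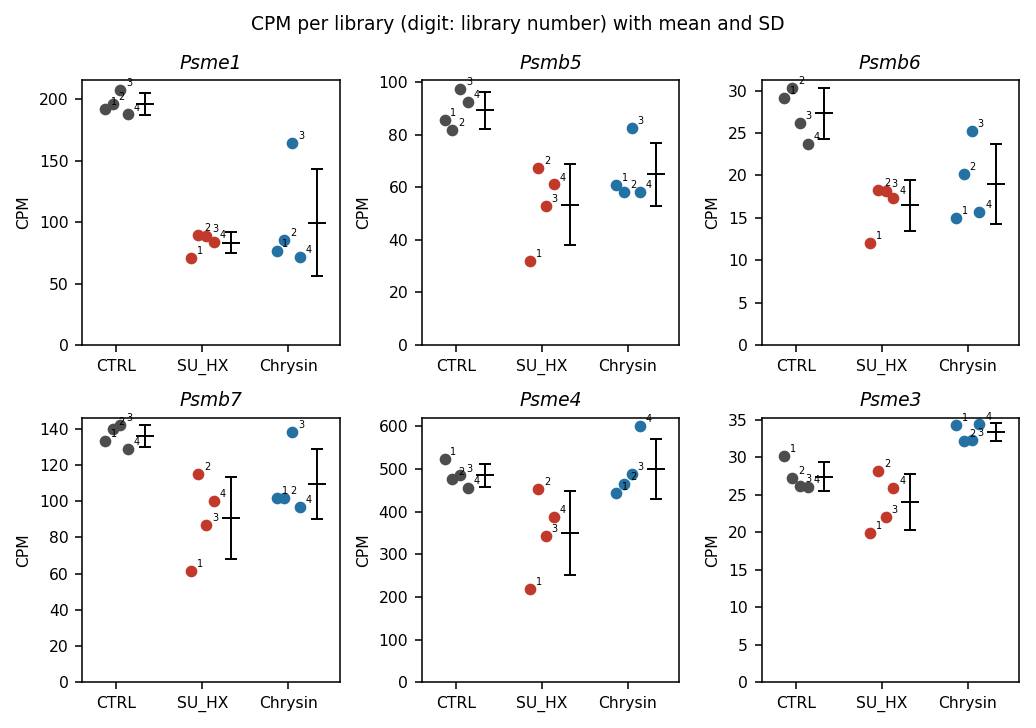
CPM in each of the 12 libraries for 6 members (points, labelled by library number; bars are mean and SD of 4 libraries per group). Psme1 is at 188 to 208 CPM in CTRL and 70.7 to 89.8 in SU_HX, Chrysin 3 lies at 164 apart from its group, and Psme3, of whose exon reads 22.9% are unique, is higher on these counts in all Chrysin libraries than in any other.

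Intron reads, which come mostly from unspliced RNA, gave a readout of the same genes that counts do not use. Of 35 members with enough intron reads, 1 fell in SU_HX (Psmb6) and none rose, against 11.3% and 8.50% of the 12242 genes tested on these reads. At an unadjusted p under 0.05, 4 were lower and 2 higher, against 2101 lower and 2034 higher of the 12242 genes. The median log2 fold change was -0.01 over the members and 0.03 over all genes, and 18 of 35 were negative. The mean deviation of the members from CTRL was between -0.06 and 0.03 in the SU_HX libraries, where counts had given -0.75 to -0.10. Intron reads of Psmb6 were at 7.76, 9.70, 9.49 and 8.86 CPM in CTRL and at 2.77, 6.87, 5.44 and 4.41 CPM in SU_HX, without overlap, a log2 fold change of -0.90 ± 0.24 (edgeR adjusted p = 0.0186). On these reads 3 members lay below CTRL in every SU_HX library and 1 above (13.5% and 11.7% of all genes). Psmb6 was not called without CTRL 2; Psmb4, Psmc4, Psmd5 and Psmd11 passed in fits that left out 1 library each, Psmc4 and Psmd5 in the upward direction. The difference between count and intron changes was not tested. Psme1 had 0 to 2 intron reads per library and was not tested. The members' reads were 47.5% intronic in SU_HX 1 and 23.1% to 31.5% in the other libraries.

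The comparison of Chrysin with SU_HX asks whether chrysin altered these genes in the model. No member passed, and none of the 12304 genes did (0% called in either direction; 524 higher and 478 lower at an unadjusted p under 0.05; DESeq2 called 2 genes, neither a member). The log2 fold change was positive in 34 of 40 members with a median of 0.16, against -0.05 over all genes; this comparison shares the SU_HX libraries with the one above, so the opposite signs are no independent result. Without SU_HX 1 the median was 0.05 with 16 of 40 negative, and without both SU_HX 1 and Chrysin 3 it was -0.03 with 27 of 40 negative. For the active sites the difference was 0.28 for Psmb5 (95% interval -0.15 to 0.71), 0.19 for Psmb6 (-0.22 to 0.61) and 0.27 for Psmb7 (-0.13 to 0.66), and all 3 were below 0 without SU_HX 1 and Chrysin 3 (-0.04, -0.08 and -0.01). Psme1 had 76.9, 85.3, 164 and 72.0 CPM in Chrysin, a difference from SU_HX of 0.25 (95% interval -0.24 to 0.74) that was -0.08 without Chrysin 3. Chrysin 3, at 164 CPM, was the Chrysin library nearest to CTRL.

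The members nearest to a call were both nuclear activators. Psme3 was at 34.3, 32.2, 32.4 and 34.5 CPM in Chrysin, above all SU_HX libraries, as were 1.0% of all genes, while no member was below in every library (1.30% of all genes), and above all CTRL libraries. Its log2 fold change over SU_HX was 0.47 ± 0.13 (unadjusted p = 0.00321, edgeR adjusted p = 0.557). Reads unique to Psme3 numbered 46 to 115 per library and stood at 19.3, 14.0, 17.9 and 17.1 CPM in Chrysin, 10.9 to 13.6 CPM in SU_HX and 11.02 to 16.7 CPM in CTRL. On these reads Chrysin overlapped with CTRL, and the log2 fold change was 0.45 over SU_HX (edgeR adjusted p = 0.554) and 0.23 over CTRL (edgeR adjusted p = 0.394). Psme4 was at 442, 465, 489 and 601 CPM in Chrysin, overlapping the highest SU_HX library, by 0.51 ± 0.21 (unadjusted p = 0.0323, edgeR adjusted p = 0.557). In the other classes the extremes were Psma2 and Psma6 of the alpha ring (0.04 and 0.31), Psmb3 and Psmb5 of the beta ring (-0.11 and 0.28), Psmc5 and Psmc6 of the ATPases (0.09 and 0.27), Psmd13 and Psmd12 of the lid (-0.08 and 0.36), Psmd10 and Psmc3ip (-0.23 and 0.20), with edgeR adjusted p of at least 0.557 for every member. Psme2 had -0.10 ± 0.14, Psmd4 0.16 ± 0.14 and Psmd14 0.05 ± 0.18.

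Against CTRL, which asks what remained different after chrysin, 1 member fell in Chrysin and none rose, or 2.50% of members against 3.97% and 4.72% of all genes. The gene was Psme1, with a log2 fold change of -0.98 ± 0.23 (edgeR adjusted p = 0.0225), all 4 Chrysin libraries below CTRL. It was not called without any 1 of the CTRL libraries or Chrysin 1, 2 or 4 (adjusted p 0.0572 to 0.0800), and was -1.33 without SU_HX 1 and Chrysin 3. The log2 fold change was negative in 30 of 40 members with a median of -0.15, against 0.00 over all genes, and 6 members lay below CTRL in every library and 1, Psme3, above (12.8% and 10.6% of all genes). Both comparisons share the CTRL libraries.

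The library labelled Chrysin 3 bore on this count. It reached at least the lowest CTRL value in 25 of the 31 subunits of core, base and lid, against 5, 7 and 12 for Chrysin 1, 2 and 4, and 0 to 11 for the SU_HX libraries. Without Chrysin 3, 4 members fell (Psmb6, Psmc5, Psme1, Psme2), against 7.97% of all genes, and without SU_HX 1, 3 fell (Psmb5, Psmb6, Psme1), against 8.32%. Without both, 13 fell: Psma1, Psma7, Psmb3 to Psmb7, Psmc2, Psmc5, Psmd2, Psmd11, Psme1 and Psme2, against 15.1% of all genes in that fit. Leaving out any 1 of the CTRL libraries, or Chrysin 1, 2 or 4, gave 0, in fits where 0.933% to 1.20% of all genes fell. With only these groups in the fit 5 fell (Psma1, Psmb5, Psmb6, Psmd11, Psme1) and Psme3 rose (adjusted p = 0.0498), against 10.8% and 11.1% of all genes.

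Among the catalytic genes Psmb6 came nearest after Psme1, at 15.01, 20.2, 25.2 and 15.7 CPM in Chrysin, by -0.53 ± 0.19 from CTRL (edgeR adjusted p = 0.0936). Chrysin 3 lay inside the CTRL range and the other libraries below it. Psmb5 had 60.7, 58.2, 82.6 and 58.0 CPM, by -0.46 ± 0.20 (edgeR adjusted p = 0.162), and Psmb7 102, 102, 138 and 96.6 CPM, by -0.31 ± 0.18 (edgeR adjusted p = 0.299). In both genes Chrysin 3 was again the one library at the CTRL level. Other values with Chrysin over CTRL were -0.38 ± 0.14 for Psme2 (edgeR adjusted p = 0.0988), 0.28 ± 0.13 for Psme3 (0.191), 0.04 ± 0.21 for Psme4, -0.01 ± 0.14 for Psmd4 and 0.09 ± 0.18 for Psmd14. The class extremes were Psma1 and Psma2 (-0.32 and 0.06), Psmb6 and Psmb1 (-0.53 and -0.11), Psmc5 and Psmc1 (-0.52 and -0.07), Psmd11 and Psmd8 (-0.33 and 0.23) and, of the chaperones with enough counts, Psmd9 at 0.20. On intron reads no member passed in either Chrysin comparison, where 0.00817% and 0% of all genes were called higher and lower over SU_HX, and 4.97% and 6.81% over CTRL. No member's intron reads lay apart from SU_HX (0.760% of all genes were lower and 0.580% higher), and 2 lay below CTRL and 0 above (10.9% and 7.95%). Without SU_HX 1 and Chrysin 3, Psma1 and Psmb6 fell against CTRL.

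Of the 3 genes that replace the active sites in the immunoproteasome, 1 rose in SU_HX and 2 did not pass. Psmb8, which replaces Psmb5, was at 13.3, 8.06, 6.22 and 11.6 CPM in CTRL and at 14.8, 15.2, 24.2 and 14.3 CPM in SU_HX. It rose without overlap, by 0.81 ± 0.26 (edgeR adjusted p = 0.0323), a call lost without CTRL 2, CTRL 3 or SU_HX 3 (0.0910 to 0.112). The call was also lost with the replicate number as a block (edgeR adjusted p = 0.0716). Unique reads made up 43.0% of the exon reads of Psmb8, so its level depends on how shared reads were assigned. Psmb9, which replaces Psmb6, had 0.41 ± 0.21 (edgeR adjusted p = 0.145), and Psmb10, which replaces Psmb7, -0.24 ± 0.16 (edgeR adjusted p = 0.269), neither past the threshold. The log2 ratio of Psmb8 to Psmb5 counts was -2.67, -3.33, -3.95 and -2.99 in CTRL and -1.10, -2.13, -1.12 and -2.08 in SU_HX, a 3.08-fold difference of 1.62. That of Psmb9 to Psmb6 was -1.35, -1.21, -1.28 and -0.81 in CTRL and 0.89, -0.28, -0.34 and -0.42 in SU_HX, a 2.19-fold difference of 1.13. Neither pair overlapped between the groups, and each had an exact two-sided permutation p of 0.0286, the smallest possible, and 0.129 after adjustment over 9 comparisons, so that neither passed. The ratio of Psmb10 to Psmb7 overlapped, with a difference of 0.37 (exact permutation p = 0.286). In Chrysin the ratio of Psmb8 to Psmb5 was -2.78, -1.96, -2.61 and -2.08, between the other groups and overlapping both, with differences of -0.75 from SU_HX (exact permutation p = 0.171) and 0.87 from CTRL (exact permutation p = 0.0571). Psmb9 to Psmb6 differed by -0.57 from SU_HX (exact permutation p = 0.143) and 0.55 from CTRL (exact permutation p = 0.0571). Immune cells carry the replacing subunits, and the summed level of the macrophage markers given above was higher in SU_HX, though Cd163 overlapped. The part of immune cells in these ratios was not tested.

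**Figure D5:**
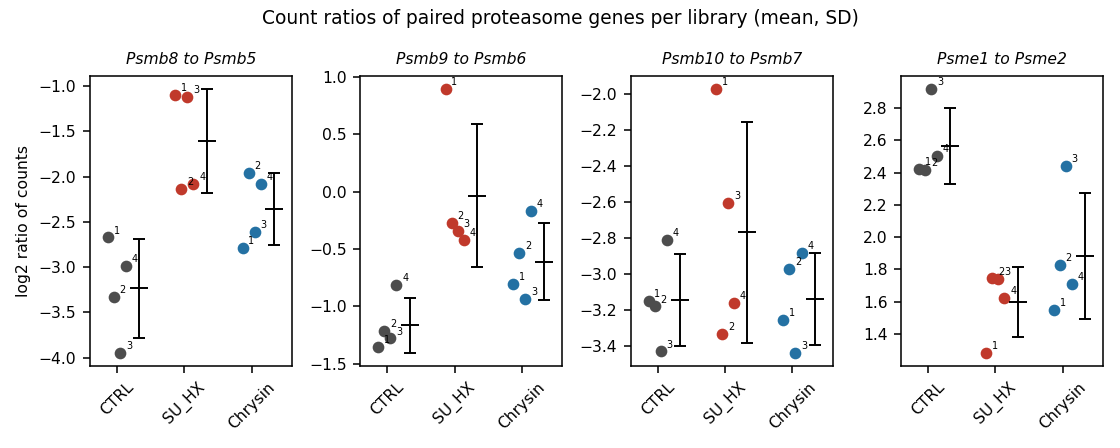
Log2 ratio of counts per library (points, labelled by library number) for 4 gene pairs in CTRL, SU_HX and Chrysin, with mean and SD of 4 libraries. Ratios of Psmb8 to Psmb5 and Psmb9 to Psmb6 lie higher in all SU_HX than in all CTRL libraries, and Psme1 to Psme2 lower.

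Of a list of 31 genes around the proteasome, 28 were tested, including Psmb8 to Psmb10. In SU_HX 2 rose and 1 fell, where 16.0% of all genes rose and 14.7% fell. The genes that rose were Psmb8 and Nfe2l2, which encodes NRF2, a factor that drives antioxidant genes, at 55.5, 48.5, 48.2 and 44.4 CPM in CTRL and 82.1, 81.2, 80.1 and 64.7 CPM in SU_HX (0.65 ± 0.16, edgeR adjusted p = 0.0102). The gene that fell was Ubqln2, a carrier of ubiquitinated proteins to the proteasome, at 49.3, 42.8, 44.2 and 45.7 CPM in CTRL and 30.4, 35.6, 33.4 and 33.5 CPM in SU_HX (-0.45 ± 0.11, edgeR adjusted p = 0.00973). Neither Nfe2l2 nor Ubqln2 overlapped with CTRL. Among the others Psmg1, which encodes an assembly chaperone of the core, had the smallest p, at -0.52 ± 0.22 (edgeR adjusted p = 0.0928). Nfe2l1, whose product NRF1 is the factor that raises proteasome genes when the proteasome is inhibited, was at 353, 362, 361 and 307 CPM in CTRL and 172, 345, 229.8 and 376 CPM in SU_HX, with overlap (-0.30 ± 0.23, edgeR adjusted p = 0.338). Pomp, the maturation factor of the core, had 0 to 3.84 CPM and 88 counts in all, too few to read. None of the 5 assembly chaperone genes and none of the 5 subunit or partner genes without the prefix that were tested passed. In Chrysin 1 of the 28 fell against CTRL, Ubqln2 at 34.0, 32.6, 36.5 and 31.8 CPM (-0.43, edgeR adjusted p = 0.0321), a call lost without any 1 of the CTRL libraries or Chrysin 1, 2 or 4 (0.0682 to 0.129), and none rose (3.97% of all genes fell and 4.72% rose). Next to the threshold were Nfe2l2 at 0.50, Ddi2, the protease that activates NRF1, at -0.29, and Psmb10 at -0.33 (edgeR adjusted p = 0.0728, 0.0991 and 0.218). Against SU_HX none passed; the values with the smallest p were 0.41 for Nploc4, a partner of the unfoldase p97, -0.39 for Psmb9, -0.44 for Psmb8 and 0.25 for Psmf1, an inhibitor of the proteasome (edgeR adjusted p = 0.557 to 0.577).

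According to the authors' deposited table, 3 of the 40 members had an adjusted p under 0.05 for SU_HX against CTRL: Psme1 with a signed fold change of -2.38, Psmb5 with -1.68 and Psmb6 with -1.67. All 3 were among the 9 called here. For Chrysin against CTRL the authors' deposited table had 1, Psme1 with -1.95, and for Chrysin against SU_HX it had 0.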

How the data were processed

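RNA-seq of 12 rat heart libraries was given as whole-number read counts per gene for 32623 genes, as deposited by the authors. Exon, intron and exon-junction reads were also deposited as counts, and for each gene the authors' count was no lower than its unique exon reads and no higher than its total. No source used here gives the aligner, genome build or strand. The FDR-adjusted p-values in the table come from a count test with tagwise dispersions that the authors ran, per the file headers. Its signed fold changes, read here as a score, hold a fall as a negative number, per the file headers.

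From the counts, edgeR 4.0.16 (R 4.3.3; TMM scaling, filterByExpr, quasi-likelihood F test with robust fit, two-sided, Benjamini-Hochberg over 12304 genes, threshold 0.05) was fitted to all 12 libraries, and in the same way to intron reads (12242 genes). SE were taken as the log2 fold change over the square root of F, and 95% intervals use the t distribution with the degrees of freedom of that fit; log2 ratios used a pseudocount of 0.5 and exact two-sided permutation tests. The tests were checked on simulated data. Alternatives used limma 3.58.1, DESeq2 1.42.0, other scaling, filters, libraries and read classes. Promoters were taken from the RefSeq table (GRCr8), and plots were drawn with matplotlib 3.10.9. Gene starts in the deposited table are printed 1 higher, since 3157 of 3157 genes with 1 exon had a length equal to end minus start. Within groups, no pair of libraries agreed within sampling noise (smallest chi-square per degree of freedom 3.17). The median library held 5085566 counts, and this depth sets the precision of low genes.

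The named genes are the catalytic subunits, Psmd4, Psmd14 and the activators, with, per comparison, up to 4 members with the smallest p in each direction (2 where none passed) and the extremes of each structural class, plus a list of partner genes, from which 2 genes were left out; these are counted, with values for up to 4 with the smallest p per comparison and for Nfe2l1 and Pomp. The members and lists were chosen with earlier results of these data known.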

Additional observations from a re-analysis of the deposited data

Results flagged for a closer look

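In 14 of 132 groups of 4 libraries tested, 1 library lay far from the other 3 by Dixon's criterion at the 95% level; chance flags about 1 in 20 groups. The library labelled Chrysin 3 was the distant one for 6 members. Psme1 was at 164 CPM there against 72.0 to 85.3 in the other Chrysin libraries, Psmb5 at 82.6 against 58.0 to 60.7, and Psmb7 at 138 against 96.6 to 102. Psmd12 was at 112.5 CPM against 85.4 to 86.3, Psmc1 at 92.7 against 80.1 to 82.2, and Psme1-ps1 at 3.84 against 0.

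SU_HX 1 was distant for Psmb6, at 12.1 CPM against 17.3 to 18.3, for Psmd14, at 28.5 against 45.4 to 48.8, and for the log2 ratio of Psmb9 to Psmb6, at 0.89 against -0.42 to -0.28. The other cases were Psmb8 in SU_HX 3, at 24.2 CPM against 14.3 to 15.2, Nfe2l2 in SU_HX 4, at 64.7 against 80.1 to 82.1, Psmb9 and Psmb10 in Chrysin 1, at 8.58 against 13.2 to 14.0 and 10.6 against 12.6 to 13.0, and Ddi2 in CTRL 1, at 119 against 122.7 to 123.4.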

How the results depend on the processing

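With only the groups compared in the fit, 4 members were called in SU_HX against CTRL, in place of 9. In that fit 12.4% of all genes fell and 14.0% rose. For Chrysin against CTRL 6 were called, in place of 1, where 10.8% of all genes fell and 11.1% rose. Without SU_HX 1 and Chrysin 3, 13 were called in Chrysin against CTRL, where 15.1% of all genes fell and 13.7% rose. On intron reads without these libraries, 2 members passed in SU_HX against CTRL and 2 in Chrysin against CTRL. For fits on intron reads with libraries left out, the share of all genes called is not given here. The log2 ratio of Psmb8 to Psmb5 in Chrysin over CTRL was 0.85 on unique exon reads. The cause was not tested. Leaving out 1 library at a time gave 3 to 16 members called in SU_HX against CTRL, 0 to 4 in Chrysin against CTRL and 0 in Chrysin against SU_HX, and 0 to 2 on intron reads in SU_HX against CTRL. Over the same fits the log2 ratio in Chrysin over CTRL was 0.64 to 1.06 for Psmb8 to Psmb5, -0.091 to 0.12 for Psmb10 to Psmb7 and -0.87 to -0.57 for Psme1 to Psme2, whose value was -0.68 over all libraries and -0.0034 on unique exon reads.

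Of the values of single genes over all alternatives, 1597 kept their direction and side of the threshold, 70 lost a call, 31 gained one and 53 turned sign, none of the last past the threshold in the fit reported. Depth limits Pomp, Psmd10 and Psme1-ps1 most. Without SU_HX 1 and Chrysin 3, Chrysin over SU_HX was -0.071 for Nfe2l1, -0.15 for Psma2, -0.036 for Psmb5, -0.081 for Psmb6, -0.010 for Psmb7, -0.32 for Psmc5, -0.12 for Psmd14 and -0.17 for Psme1. On unique junction reads it was 0.011 for Psmb10 and 0.0074 for Psmd13. For Chrysin over CTRL, Pomp was 0.10 with DESeq2 and 0.011 with no filter. Psmd4 was 0.0074 with no filter, 0.0087 with only these groups and 0.013 on junction reads. Psmb9 was -0.0032 with limma-voom, -0.0013 without SU_HX 1 and Chrysin 3, and -0.29 on junction reads. Psma2 in SU_HX over CTRL was -0.0100 with limma-voom. With 1 library left out, SU_HX over CTRL crossed 0 for Psma2 (-0.090 to 0.18), Psmd10 (-0.12 to 0.51) and Psmd14 (-0.035 to 0.19). Chrysin over SU_HX did so for Nfe2l1 (-0.013 to 0.34), Psma2 (-0.11 to 0.18), Psmb10 (-0.15 to 0.0099), Psmc5 (-0.15 to 0.22), Psmd10 (-0.46 to 0.17), Psmd13 (-0.17 to 0.016), Psmd14 (-0.096 to 0.16) and Psme1 (-0.076 to 0.39), and Chrysin over CTRL for Pomp (-1.11 to 0.61), Psmb9 (-0.035 to 0.17), Psmd14 (-0.011 to 0.19), Psmd4 (-0.061 to 0.029) and Psme4 (-0.034 to 0.096).

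With the replicate number as a block, 8 members were called in SU_HX against CTRL, where 13.3% of all genes fell and 13.1% rose. In Chrysin against SU_HX 0 were called. In Chrysin against CTRL 1 was called, where 2.32% of all genes fell and 2.76% rose. Same-numbered libraries did not deviate together (correlations of -0.38 to 0.07 over 12 pairs). No pairing by number was seen, but these correlations cannot show that same-numbered libraries shared no handling.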
